A study of Mus musculus with 16 samples.

Results

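Irgm1, Irgm2, Igtp, Iigp1, Ifi47, Tgtp1, Gbp2, Gbp3, Gbp5 and Gbp7 are 10 interferon-inducible GTPase genes, picked by their symbols from the 45664 gene entries of a mouse RNA sequencing count table. All 10 were found there, and all 10 passed the filter on low counts that left 15754 genes to test. Their RNA was measured in 4 sorted populations of mononuclear phagocytes, with 4 libraries each, from C57BL/6 mice aged 8 to 10 weeks for which the labels name no treatment. Cornea macrophages were sorted on CD45, CD11b, CD64 and F4/80, retinal microglia and brain microglia on CD45 and CD11b, and bone marrow monocytes on CD45, CD11b, CD115 and Ly6C. Each library of cornea and of retina came from 10 pooled mice. The pool size of the brain and marrow libraries is unknown, because their descriptions name retinal microglia against their own title and source. The cornea was digested for hours with warm collagenase D under shaking, the retina was broken up by pipetting in cold buffer, and for brain and marrow the labels give no handling.

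Interferons are secreted when cells sense infection, and they switch on many defence genes in neighbouring cells. Interferon gamma acts mainly through a DNA element called GAS, whereas type I interferons act mainly through an element called ISRE, which the transcription factor IRF1 can also bind. Immunity-related GTPases (IRGs) and guanylate-binding proteins (GBPs) are among the strongest targets of interferon gamma and act inside the cell, where they attack the vacuoles that hold parasites and bacteria. Irgm1, Irgm2 and Igtp (also called Irgm3) are the regulatory IRGs, which sit on the membranes of the host and keep the effector IRGs inactive there. Iigp1 (Irga6), Ifi47 (Irgd) and Tgtp1 (Irgb6) are effector IRGs, which load onto the vacuole. GBPs are larger GTPases that coat vacuoles and bacteria.

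Of these genes, 9 lie in clusters on chromosomes 3 and 11 of the mouse genome. In the GENCODE annotation of GRCm38, Gbp5 (chr3:142493978-142522344), Gbp7 (chr3:142530342-142550149), Gbp3 (chr3:142560026-142573209) and Gbp2 (chr3:142620602-142638008) follow each other on the plus strand of chromosome 3. Irgm1 (chr11:48861968-48871683, minus strand), Tgtp1 (chr11:48985327-48994172, minus strand) and Ifi47 (chr11:49076587-49096974, plus strand) form a group on chromosome 11, and Igtp (chr11:58199556-58207591) and Irgm2 (chr11:58199618-58222782) lie together on its plus strand farther along. The annotated exons of Igtp and Irgm2 share 162 bases, which is 8.01% of the exon bases of Igtp and 4.39% of those of Irgm2. Their counts are therefore not fully separate. The same holds for Gbp7, which shares 637 exon bases (11.3%) with Gm43802. Ifi47 shares 217 (8.77%) with Olfr56 and, on the opposite strand, Gm12188. Tgtp1 shares 223 (6.96%) with Gm12185, and Gbp2 24 (0.954%) with Mir6381 on the opposite strand. Tgtp1 is the least certain member: 79.4% of its 50-base stretches of exon also occur in its near-copy Tgtp2, and the labels do not say how reads that fit both were counted.

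The promoters of 9 of the 10 genes were in the RefSeq table (GRCm38.p6), which gives 250 bases before to 50 after each start site, and they were searched on both strands for 3 patterns. The ISRE core GAAANNGAAA was present in 8 of the 9 promoters, against 3.44% of all 32851 promoters of that length, and the longer ISRE GAAANNGAAACT, which contains the core, in 5 of the 9, against 0.271%. The GAS pattern TTCNNNGAA was present in 5 of the 9, against 8.3% of all promoters, and the same 5 promoters also held an ISRE core, against 0.454%. The Ifi47 window held none of the 3 patterns. In Igtp, Irgm2 and Tgtp1 the GAS pattern starts 11 bases before the ISRE core, an arrangement found in 5 of the 32851 promoters, the other two being those of Tgtp2 and Gm12185. The first 3 sequences below are shown because they share this pair, and the last 2 because they are the GBP promoters whose windows lie outside annotated exons. Each is 60 bases, 5′ to 3′ on the strand of the gene, with the ISRE core, and the GAS pattern where it falls in the window, in capitals.
Igtp (chr11:58199487-58199546, plus strand): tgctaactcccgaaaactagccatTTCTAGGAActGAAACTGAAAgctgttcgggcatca
Irgm2 (chr11:58214878-58214937, plus strand): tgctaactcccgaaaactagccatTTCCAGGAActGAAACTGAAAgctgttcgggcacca
Tgtp1 (chr11:48992299-48992358, minus strand): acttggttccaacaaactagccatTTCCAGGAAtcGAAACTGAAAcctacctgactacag
Gbp5 (chr3:142496734-142496793, plus strand): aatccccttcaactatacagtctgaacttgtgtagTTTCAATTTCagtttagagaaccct
Gbp7 (chr3:142530248-142530307, plus strand): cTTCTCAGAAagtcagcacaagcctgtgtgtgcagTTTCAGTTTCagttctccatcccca

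The Igtp and Irgm2 windows differ at 2 of their 60 bases, those of Igtp and Tgtp1 at 23, and those of Irgm2 and Tgtp1 at 21. The ISRE core begins 34 bases before the start site in Igtp, 64 in Irgm2, 77 in Tgtp1, 165 in Gbp5 and 53 in Gbp7, and in both GBPs it lies on the opposite strand. It begins 59 bases before the start in Gbp2, 45 and 39 in Gbp3, and 30 and 24 in Irgm1. Of the windows shown, those of Irgm2, Tgtp1 and Gbp5 lie inside the GENCODE gene bounds given above. For these genes the RefSeq start site used here is not the outermost annotated start. A match describes these letters and does not show that a factor binds there, and no match says only that the letters are absent from this window.

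**Figure D1:**
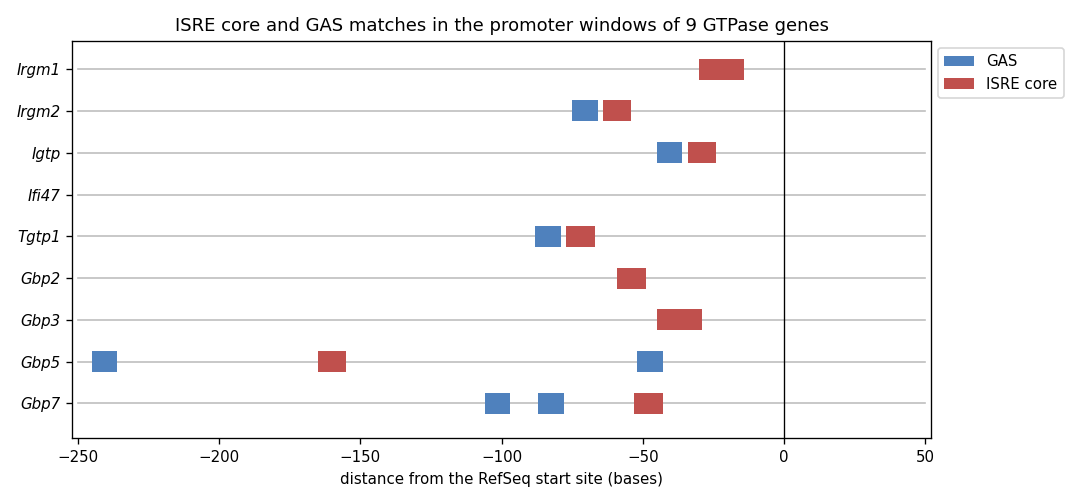
Positions of the ISRE core (red) and GAS (blue) patterns in the promoter windows of the 9 members with a RefSeq entry, in bases from the start site. The ISRE core begins at most 77 bases before the start in 7 of the 8 promoters that hold it, and 165 bases before it in Gbp5; the Ifi47 line is empty.

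Library totals ran between 12570116 and 21756558 counts in cornea macrophages, 10714335 and 19943048 in retinal microglia, 8677418 and 12848012 in brain microglia and 8910707 and 20705066 in bone marrow monocytes. Marker levels differed between the populations, and not every marker followed the labels. The summed level of 8 microglia markers was 26982 to 33229 CPM (counts scaled to a common library size) in retinal microglia and 43587 to 48775 in brain microglia, against 1826 to 2090 in cornea macrophages and 592 to 932 in bone marrow monocytes. Of these 8 markers, 7 were lower in cornea macrophages than in retinal microglia, but Fcrls was higher in cornea macrophages, without overlap of libraries. Classical monocyte markers summed to 15463 to 22407 CPM in bone marrow monocytes and to at most 1072 in any other library. The 7 macrophage markers summed to 21891 to 30126 CPM in cornea macrophages, 8775 to 11257 in retinal microglia, 12573 to 15814 in brain microglia and 2524 to 3001 in bone marrow monocytes. These markers were split between cornea and microglia. Adgre1, Cd74, Lyve1 and Mrc1 were higher in cornea macrophages than in either kind of microglia, without overlap of libraries. Csf1r, Fcgr1 and Mertk were lower in cornea macrophages than in either, also without overlap. Of the genes of the sort markers, Adgre1 (F4/80) averaged 2515 ± 106 CPM in cornea macrophages, 506 ± 86.5 in retinal microglia, 948 ± 101 in brain microglia and 432 ± 124 in bone marrow monocytes. Fcgr1, the gene of CD64, was lower in cornea macrophages than in every other population, at 71.3 ± 10.2 CPM in cornea macrophages, 353 ± 48.2 in retinal microglia, 323 ± 37.7 in brain microglia and 129 ± 5.38 in bone marrow monocytes. RNA of other cells was present too: 8 corneal epithelium and stroma genes summed to 1532 to 2581 CPM in cornea macrophages, 8 photoreceptor genes to 751 to 7206 CPM in retinal microglia, and 9 granulocyte genes to 717 to 4401 CPM in bone marrow monocytes. Erythroid genes, 5 in number, summed to 369 to 2474 CPM in bone marrow monocytes and to at most 47.7 in any other library. The granulocyte and erythroid sums were both highest in marrow 1, at 4401 and 2474 CPM, and next in marrow 2, at 2050.4 and 1622 CPM. A set of 10 immediate-early and dissociation genes summed to 10800 to 12800 CPM in cornea macrophages, against 409 to 2320 CPM in the other populations. The part of these RNAs in the results that follow was not tested. In sorted bulk samples, fewer cells of a type and less RNA per cell cannot be told apart.

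The CPM values were scaled with TMM, which sets the bulk of genes equal between libraries; the TMM factors were 0.661 to 0.705 in cornea macrophages and 1.07 to 1.25 elsewhere. With total counts in place of TMM, the median log2 difference of all genes moved by -0.79 for cornea macrophages against retinal microglia, by -0.67 against brain microglia and by -0.67 against bone marrow monocytes. It moved by 0.12 for retinal against brain microglia and for retinal microglia against bone marrow monocytes. Differences that involve the cornea therefore depend on this choice, and members whose call or direction changes with it are named beside their result.

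The 3 regulatory IRGs did not share a pattern. Irgm1 had 165, 189, 160.3 and 194 CPM in cornea macrophages, 83.8, 108, 99.3 and 71.0 in retinal microglia, 82.6, 101, 87.5 and 78.6 in brain microglia and 268, 272, 268 and 322 in bone marrow monocytes. Marrow was thus highest in every library, cornea next, and both kinds of microglia overlapped. Irgm2 had 35.4, 36.8, 27.8 and 53.9 CPM in cornea macrophages, 69.5, 77.6, 78.6 and 55.5 in retinal microglia, 132, 131, 136 and 135 in brain microglia and 75.1, 93.1, 106 and 85.3 in bone marrow monocytes. Here brain was highest and cornea lowest without overlap, while retina and marrow overlapped. Igtp had 33.0, 44.1, 25.8 and 47.0 CPM in cornea macrophages, 95.8, 76.8, 109 and 79.1 in retinal microglia, 94.0, 103, 106 and 95.3 in brain microglia and 95.2, 92.2, 90.8 and 86.0 in bone marrow monocytes. For Igtp the cornea stood apart below the other 3 populations, whose libraries overlapped.

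The effector IRGs were near 0 in microglia and highest in marrow or cornea. Iigp1 lies apart from the other members, on chromosome 18. Ifi47 had 54.2, 63.1, 53.1 and 46.1 CPM in cornea macrophages, 2.92, 2.39, 1.13 and 3.18 in retinal microglia, 2.83, 6.00, 0.893 and 1.02 in brain microglia and 280.0, 308, 293 and 261 in bone marrow monocytes. These were 3 separate levels, with both kinds of microglia sharing the lowest. Iigp1 had 9.19, 18.8, 14.9 and 5.71 CPM in cornea macrophages, 2.52, 0, 1.56 and 3.58 in retinal microglia, 0.857, 0.610, 0.397 and 0 in brain microglia and 8.00, 7.67, 7.49 and 9.94 in bone marrow monocytes. Cornea and marrow overlapped and lay above every microglia library. Tgtp1 had 2.84, 5.03, 2.00 and 6.44 CPM in cornea macrophages, 0.789, 1.47, 0.808 and 0.443 in retinal microglia, 0.686, 0.407, 0.198 and 0 in brain microglia and 5.15, 6.18, 7.49 and 6.60 in bone marrow monocytes, again with cornea and marrow overlapping above the microglia. These low levels rest on few reads: at most 89 for Iigp1 and 30 for Tgtp1 in a microglia library. A count of 0 allows a level of up to 0.138 to 0.346 CPM on total counts, depending on the library, and that limit covers counting error only.

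The GBPs were higher in cornea and marrow than in retina, but the order of the populations was not the same for every gene. Gbp2, which is recruited to the vacuole of Toxoplasma, had 154, 298, 152 and 244 CPM in cornea macrophages, 11.7, 5.23, 21.4 and 6.64 in retinal microglia, 19.7, 16.5, 13.6 and 14.6 in brain microglia and 149, 160.2, 114 and 135 in bone marrow monocytes. Cornea and marrow overlapped high and the microglia overlapped low. Gbp3 had 59.4, 77.8, 49.5 and 58.3 CPM in cornea macrophages, 14.7, 9.23, 11.3 and 12.9 in retinal microglia, 19.4, 28.5, 22.0 and 28.7 in brain microglia and 146, 123, 122 and 163 in bone marrow monocytes. All 4 populations were separate for Gbp3, in the order marrow, cornea, brain, retina. Gbp5, which is linked to inflammasome activation, had 32.2, 98.2, 57.4 and 60.3 CPM in cornea macrophages, 6.23, 4.44, 1.35 and 4.83 in retinal microglia, 14.4, 5.39, 9.92 and 9.50 in brain microglia and 19.1, 22.3, 27.2 and 28.0 in bone marrow monocytes. Cornea was highest here and the lowest cornea library lay just above the highest marrow library. Gbp7, which has been tied to the assembly of the phagocyte NADPH oxidase, had 121, 159, 129.8 and 166 CPM in cornea macrophages, 52.8, 61.0, 35.2 and 56.8 in retinal microglia, 159, 130.02, 95.1 and 118 in brain microglia and 76.3, 76.6, 94.8 and 102 in bone marrow monocytes. Retina was lowest in every library, cornea and brain overlapped, and so did brain and marrow.

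**Figure D2:**
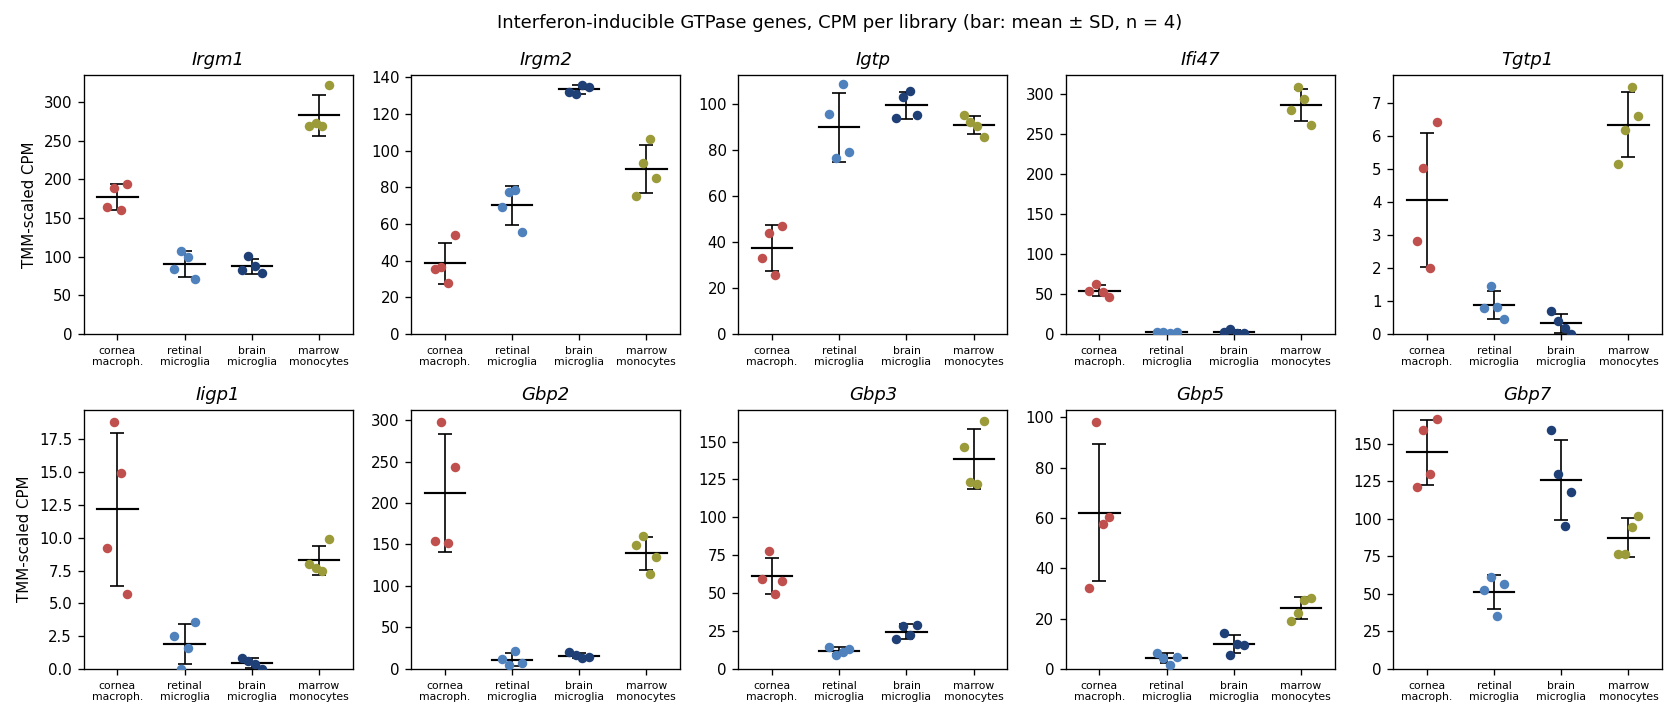
TMM-scaled CPM of the 10 genes in each of the 16 libraries, on a separate linear axis for each gene, with cornea macrophages, retinal microglia, brain microglia and bone marrow monocytes from left to right. Points are libraries, and the bar is the mean ± SD (n = 4). Ifi47 averaged 54.1 CPM in cornea macrophages, 2.41 in retinal microglia, 2.68 in brain microglia and 286 in bone marrow monocytes.

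Within a population some libraries stood above the others for most of the genes. Cornea 2 lay above the mean of the 4 cornea libraries for 9 of the 10 genes and cornea 4 for 7, while cornea 1 and cornea 3 did so for 1 gene each. The summed level of the 10 genes was 666, 990.4, 673 and 881 CPM in cornea macrophages, 341, 346, 359 and 294 in retinal microglia, 526, 523, 471 and 481 in brain microglia and 1122, 1162, 1132 and 1200.2 in bone marrow monocytes. On this summed scale the order was marrow, cornea, brain, retina, with no overlap between populations. On total counts the sums were 468, 655, 474 and 611 CPM in cornea macrophages, 404, 412, 417 and 368 in retinal microglia, 590.01, 593, 503 and 516 in brain microglia and 1201, 1309.9, 1284 and 1291 in bone marrow monocytes, so there cornea and brain overlapped.

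Between genes, levels were compared as RPKM, the TMM-scaled CPM divided by the deposited gene length in kilobases. Gbp2 led in cornea macrophages at 84.2 RPKM, ahead of Irgm1 at 30.5, Gbp7 at 25.7 and Ifi47 at 23.4. Igtp led in both kinds of microglia, at 44.6 RPKM in retinal and 49.3 in brain microglia, followed by Irgm2 at 19.4 in retinal and 36.8 in brain microglia. Ifi47 led in bone marrow monocytes at 123 RPKM, ahead of Gbp2 at 55.5 and Irgm1 at 48.7. Tgtp1 was lowest of the 10 in every population, at 1.27 RPKM in cornea macrophages, 0.273 in retinal microglia, 0.101 in brain microglia and 1.98 in bone marrow monocytes.

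The make-up of the summed RPKM, which does not depend on the scaling between libraries, differed between populations. The 4 GBPs together took 60.4% ± 3.78 of it in cornea macrophages, 18.2% ± 1.66 in retinal microglia, 26.9% ± 3.49 in brain microglia and 32.2% ± 2.34 in bone marrow monocytes (SD, n = 4 each). The lowest cornea library, at 56.5%, was far above the highest of any other population, at 34.5%. Gbp2 alone held 36.5% ± 4.45 in cornea macrophages, 4.33% ± 2.38 in retinal microglia, 4.55% ± 0.653 in brain microglia and 15.2% ± 1.92 in bone marrow monocytes. Igtp held 8.16% ± 1.07 in cornea macrophages, 44.7% ± 3.57 in retinal microglia, 35.1% ± 2.47 in brain microglia and 12.4% ± 0.628 in bone marrow monocytes. Ifi47 held 10.6% ± 2.22 in cornea macrophages, 1.08% ± 0.479 in retinal microglia, 0.806% ± 0.689 in brain microglia and 33.9% ± 2.25 in bone marrow monocytes. Cornea macrophages thus had mostly GBP RNA, microglia mostly Igtp and Irgm2, and marrow monocytes had Ifi47 as the largest single share.

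**Figure D3:**
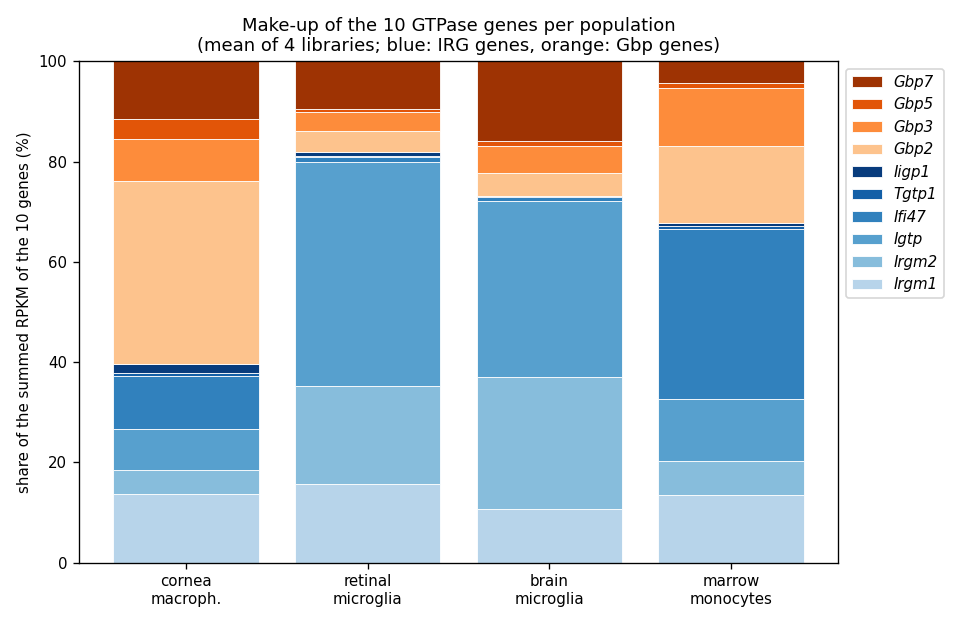
Share of each gene in the summed RPKM of the 10 genes, in percent, as the mean over the 4 libraries of each population, with cornea macrophages first and bone marrow monocytes last. Gbp2 holds 36.5% in cornea macrophages, Igtp 44.7% in retinal and 35.1% in brain microglia, and Ifi47 33.9% in bone marrow monocytes.

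Cornea macrophages were first set against retinal microglia, a macrophage and a microglia population of the eye. All 4 GBPs, Irgm1 and the 3 effector IRGs were higher in cornea macrophages, and the regulatory IRGs Igtp and Irgm2 were lower. That makes 8 genes higher and 2 lower of 10 by edgeR's quasi-likelihood test (adjusted p under 0.05), where 66.0% of all 15754 genes were called, 30.9% higher and 35.1% lower. The median log2 difference was 2.28 for the members and -0.12 for all genes. No member's libraries overlapped between these populations, which held for 59.1% of all genes. On total counts 25.6% of the called genes were higher, in place of 46.8%, and 7 members were higher and 2 lower.

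Gbp2 averaged 212 ± 71.5 CPM in cornea macrophages and 11.2 ± 7.34 CPM in retinal microglia, a log2 difference of 4.24 (SE 0.375, adjusted p = 3.05e-08). Ifi47 had a log2 difference of 4.49 (SE 0.403, adjusted p = 3.78e-08), Gbp5 of 3.89 (SE 0.422, adjusted p = 4.08e-07) and Gbp3 of 2.35 (SE 0.192, adjusted p = 1.11e-08). Differences of this size stood well outside the spread between libraries. Iigp1 differed by 2.66 (SE 0.780, adjusted p = 0.00644), Tgtp1 by 2.21 (SE 0.600, adjusted p = 0.00377), and Gbp7 by 1.49 (SE 0.191, adjusted p = 3.05e-06). Irgm1 was the smallest of the 8, at 0.97 (SE 0.138, adjusted p = 1.01e-05), and on total counts it was no longer called, at 0.18. Igtp was lower by a log2 difference of -1.26 (SE 0.169, adjusted p = 5.03e-06) and Irgm2 of -0.87 (SE 0.177, adjusted p = 0.000387).

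Cornea macrophages against brain microglia gave a similar list with a smaller GBP part. Gbp2, Gbp3, Gbp5, Irgm1 and the 3 effector IRGs were higher in cornea macrophages, Igtp and Irgm2 were lower, and Gbp7 did not pass the test. Thus 7 members were higher and 2 lower, where 66.8% of all genes were called, 33.8% higher and 33.1% lower. The libraries of 9 members did not overlap between the groups, against 62.4% of all genes, and the median log2 difference was 1.99 for the members and -0.00135 for all genes. On total counts 31.9% of the called genes were higher, in place of 50.5%.

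Iigp1 averaged 12.2 ± 5.85 CPM in cornea macrophages and 0.466 ± 0.363 CPM in brain microglia, with a log2 difference of 4.72 (SE 0.913, adjusted p = 0.000228). Ifi47 had 4.37 (SE 0.412, adjusted p = 6.95e-08), Gbp2 3.72 (SE 0.367, adjusted p = 1.19e-07), Tgtp1 3.65 (SE 0.679, adjusted p = 0.000155) and Gbp5 2.66 (SE 0.398, adjusted p = 1.7e-05). Smaller log2 differences were those of Gbp3, at 1.31 (SE 0.185), and Irgm1, at 1.02 (SE 0.138). Irgm2 was lower, at -1.79 (SE 0.181, adjusted p = 1.6e-07) and so was Igtp, at -1.41 (SE 0.170, adjusted p = 1.43e-06). Gbp7 averaged 144 ± 21.9 CPM in cornea macrophages and 126 ± 26.7 CPM in brain microglia, and its log2 difference of 0.20 (adjusted p = 0.358) became -0.48 (adjusted p = 0.0358) on total counts, so neither a direction nor a lack of one can be given for it.

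Against bone marrow monocytes, the cornea had fewer transcripts of most IRGs and more of some GBPs. Irgm1, Irgm2, Igtp, Ifi47 and Gbp3 were lower in cornea macrophages, Gbp5 and Gbp7 were higher, and Gbp2, Iigp1 and Tgtp1 did not pass the test. These 2 higher and 5 lower members compare with 63.3% of all genes called, 32.2% higher and 31.1% lower. The libraries of those 7 genes did not overlap between groups, against 57.9% of all genes, and the median log2 difference was -0.66 for the members and 0 for all genes. On total counts 31.7% of the called genes were higher, in place of 50.9%, and no member was higher while 5 were lower.

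Ifi47 averaged 54.1 ± 6.99 CPM in cornea macrophages and 286 ± 20.0 CPM in bone marrow monocytes, a log2 difference of -2.40 (SE 0.347, adjusted p = 1.23e-05). Igtp differed by -1.28 (SE 0.170), Irgm2 by -1.22 (SE 0.179), Gbp3 by -1.18 (SE 0.182) and Irgm1 by -0.68 (SE 0.137). The same 5 genes were lower on total counts. Gbp5 was higher by 1.36 (SE 0.377, adjusted p = 0.00458) and Gbp7 by 0.72 (SE 0.188, adjusted p = 0.00292), and on total counts these log2 differences were 0.67 and 0.044, neither past the threshold. Gbp2 had a log2 difference of 0.60 (adjusted p = 0.116), which was called in 4 alternative fits, for instance at 0.67 (adjusted p = 0.0188) when only the cornea and marrow libraries were fitted. On total counts the Gbp2 log2 difference was -0.080. Tgtp1 had -0.63 (adjusted p = 0.34) and Iigp1 0.55 (adjusted p = 0.525), and Iigp1 turned to -0.12 on total counts.

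Retinal microglia had lower levels of a few of these genes than brain microglia and higher levels of none by the test. Irgm2, Gbp3 and Gbp7 were lower in retinal microglia, 3 members of 10, where 10.5% of all genes were called, 6.95% higher and 3.60% lower. The libraries of the same 3 genes did not overlap, against 18.1% of all genes. Gbp7 averaged 51.5 ± 11.3 CPM in retinal microglia and 126 ± 26.7 CPM in brain microglia, a log2 difference of -1.29 (SE 0.190, adjusted p = 0.000264). Gbp3 averaged 12.0 ± 2.31 CPM in retinal microglia and 24.6 ± 4.69 CPM in brain microglia, at -1.04 (SE 0.188, adjusted p = 0.00159). Irgm2 averaged 70.3 ± 10.7 CPM in retinal microglia and 133 ± 2.44 CPM in brain microglia, at -0.92 (SE 0.176, adjusted p = 0.00246). The median log2 difference was -0.33 for the members and 0.047 for all genes. On total counts 82.3% of the called genes were higher, in place of 65.9%, and 3 members were lower.

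The column headers put every retinal library in lane 2 of the sequencer and every brain library in lane 3, so lane and population cannot be told apart within this comparison, and only cornea and marrow libraries bridge the lanes. With the lane as a term in the fit, 463 genes were called in place of 1662, and of the members only Gbp3 was called, at -1.14 (adjusted p = 0.0416). In that fit Gbp7 had a log2 difference of -1.02 (adjusted p = 0.0635) and Irgm2 of -0.41 (adjusted p = 0.353). Without the lane term, Gbp5 had -1.23 (SE 0.399, adjusted p = 0.0595) and passed the threshold in 6 alternative fits, with DESeq2 at adjusted p = 0.0198. With the lane term Gbp5 had -1.04 (adjusted p = 0.425), Gbp2 -0.45 (adjusted p = 0.729) and Iigp1 1.43 (adjusted p = 0.639). In the fit without the lane, Gbp2 had -0.52 (adjusted p = 0.388), and without retina 3, whose 21.4 CPM was the highest of its group, -1.06 (adjusted p = 0.0252). Iigp1 had 2.06 (adjusted p = 0.16) in that fit without the lane, and without retina 2, where it had no counts, 2.47 (adjusted p = 0.023). The remaining 4 genes had, also without the lane term, log2 differences of 0.051 for Irgm1 (adjusted p = 0.88), -0.12 for Ifi47 (adjusted p = 0.915), -0.14 for Igtp (adjusted p = 0.657) and 1.44 for Tgtp1 (adjusted p = 0.2).

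Retinal microglia against bone marrow monocytes differed in 8 of the 10 genes, all lower in the microglia. The 4 GBPs, Irgm1 and the 3 effector IRGs were lower, and Igtp and Irgm2 did not pass the test. Of all genes 59.3% were called, 32.2% higher and 27.1% lower, and the libraries of the 8 genes did not overlap, against 55.2% of all genes. The median log2 difference was -2.32 for the members and 0.12 for all genes. Ifi47 had the largest, at -6.89 (SE 0.439, adjusted p = 6.91e-10), with 2.41 ± 0.911 CPM in retinal microglia and 286 ± 20.0 CPM in bone marrow monocytes. Gbp2 had -3.64 (SE 0.365), Gbp3 -3.53 (SE 0.200), Tgtp1 -2.85 (SE 0.609) and Gbp5 -2.53 (SE 0.403). Irgm1 had -1.64 (SE 0.140, adjusted p = 2.81e-08). The call of Iigp1, at -2.11 (adjusted p = 0.026), was lost without retina 3 (adjusted p = 0.0531) or without marrow 4 (adjusted p = 0.0523). It was also lost without the 3 libraries whose titles lack the letter b (adjusted p = 0.104). The call of Gbp7, at -0.76 (adjusted p = 0.00224), was lost with the lane as a term, at -0.56 (adjusted p = 0.0647). Irgm2 had -0.35 (adjusted p = 0.0903) and Igtp -0.015 (SE 0.166, adjusted p = 0.949).

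Brain microglia against bone marrow monocytes gave 7 members lower and 2 higher, where 56.0% of all genes were called, 27.4% lower and 28.5% higher. Irgm1, the 3 effector IRGs, Gbp2, Gbp3 and Gbp5 were lower in brain microglia, Irgm2 and Gbp7 were higher, and Igtp did not pass the test. The libraries of 8 genes did not overlap, against 56.7% of all genes, those of Gbp7 did, and the median log2 difference was -2.09 for the members and 0.042 for all genes. Ifi47 had -6.77 (SE 0.444, adjusted p = 8.56e-10), Tgtp1 -4.29 (SE 0.688), Iigp1 -4.16 (SE 0.901), Gbp2 -3.12 (SE 0.358) and Gbp3 -2.49 (SE 0.191). Irgm1 had -1.70 (SE 0.140) and Gbp5 -1.30 (SE 0.386, adjusted p = 0.00865). Irgm2 averaged 133 ± 2.44 CPM in brain microglia and 90.0 ± 13.1 CPM in bone marrow monocytes, a log2 difference of 0.57 (SE 0.175, adjusted p = 0.0107). The call of Gbp7, at 0.52 (adjusted p = 0.0248), was lost without brain 1, brain 2, marrow 1 or marrow 2, at 0.39 to 0.50, and with the lane as a term, at 0.46.

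The comparisons share populations, so their lists are not independent of each other. Within a lane, members could be compared in 5 of the 6 comparisons, which gave 60 values, and 59 had the sign of the fit over all libraries. Retinal against brain microglia, which share no lane, gave none. These values reuse libraries of the fit, so they are no independent check of it. Except for cornea against retina and brain against marrow, 1 side held a single library. The exception was Iigp1 for cornea macrophages against bone marrow monocytes, a difference that was not called.

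**Figure D4:**
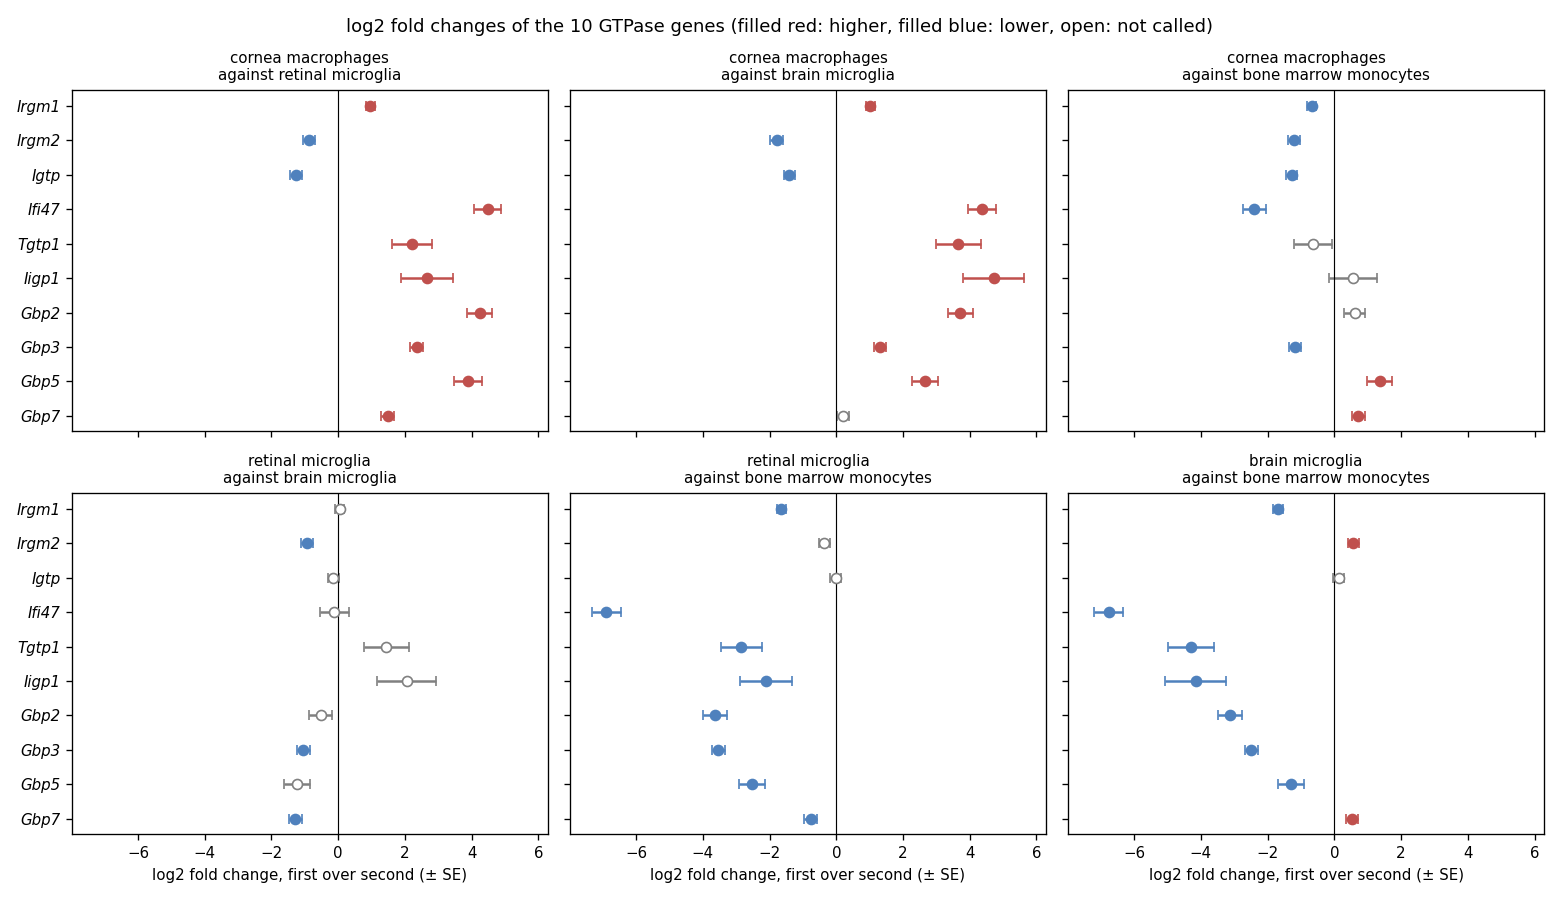
Log2 differences of the 10 genes in the 6 comparisons, with bars of 1 SE from edgeR, filled red points for genes called higher, filled blue points for genes called lower and open points for genes not called at adjusted p under 0.05. Ifi47 spans 4.49 for cornea macrophages against retinal microglia to -6.89 for retinal microglia against bone marrow monocytes, whereas Igtp stays between -1.41 and 0.13.

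Other GTPase genes of these families gave mixed counts that depended on the scaling in the cornea. Counts of this and the following lists are to be read beside the shares of all genes. Those were 30.9% to 33.8% higher and 31.1% to 35.1% lower in the comparisons of the cornea. For retinal against brain microglia they were 6.95% and 3.60%. Against bone marrow monocytes they were 32.2% and 27.1% for retinal microglia, and 28.5% and 27.4% for brain microglia. Of 17 other interferon-inducible GTPase genes tested, 5 were higher and 3 lower in cornea macrophages against retinal microglia (2 and 7 on total counts), 8 and 3 against brain microglia (4 and 5 on total counts), and 2 and 10 against bone marrow monocytes (2 and 12). In retinal against brain microglia 2 were higher and 0 lower. Against bone marrow monocytes 2 were higher and 12 lower in retinal microglia, and 2 higher and 13 lower in brain microglia. Tgtp2, the near-copy of Tgtp1, averaged 32.2 ± 18.8 CPM in cornea macrophages, 5.25 ± 0.930 in retinal microglia, 2.08 ± 0.862 in brain microglia and 60.1 ± 7.81 in bone marrow monocytes. Its order was that of Tgtp1, with which it shares most of its sequence. Gbp6 averaged 10.0 ± 2.05 CPM in cornea macrophages, 1.97 ± 1.25 in retinal microglia, 0.821 ± 0.783 in brain microglia and 12.3 ± 6.07 in bone marrow monocytes. The IRG-like gene 9930111J21Rik2 ran the other way in the cornea, with 11.6 ± 0.953 CPM in cornea macrophages, 109 ± 19.3 in retinal microglia, 122 ± 18.2 in brain microglia and 231 ± 17.5 in bone marrow monocytes. Of the 50-base exon stretches, 86.6% in Tgtp2, 70.7% in Gbp6 and 59.2% in 9930111J21Rik2 occur in another gene, so the split of reads among such copies is uncertain. Mx1, a GTPase against influenza viruses, was one of the 2 genes higher in retinal than in brain microglia, with 29.1 ± 5.34 CPM in retinal microglia and 5.03 ± 3.72 CPM in brain microglia (log2 difference 2.54, SE 0.482, adjusted p = 0.00237). Its call was lost with the lane as a term (adjusted p = 0.217).

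Interferon transcripts themselves were scarce. Ifng, the gene of interferon gamma, had 0 counts in all 16 libraries, which at these depths allows up to 0.346 CPM on total counts in the shallowest library. Ifnb1, the gene of interferon beta, had 56, 228, 163 and 98 counts in cornea macrophages, 0, 7, 28 and 0 in retinal microglia, and 0 in every brain and marrow library. In cornea macrophages that was 6.35, 19.4, 12.5 and 6.51 CPM, and cornea 2 and cornea 3 were the highest. The list of T and NK cell markers, cells that make interferon gamma, summed to 36.8 to 65.2 CPM in cornea macrophages, 0 to 2.68 in retinal microglia, 0.0725 to 1.63 in brain microglia and 34.2 to 39.2 in bone marrow monocytes, and 7, 7, 9 and 8 of its 13 genes were at 0 in every library of the 4 populations in that order. Only 3 of the 13 passed the filter on low counts. The cornea sum rested on Cd4, with 48.2 ± 15.3 CPM in cornea macrophages and 0.364 CPM in bone marrow monocytes. The marrow sum rested on Klrk1, with 1.21 CPM in cornea macrophages and 24.0 ± 6.40 CPM in bone marrow monocytes, and on Nkg7, at 0 in every cornea library and at 11.6 ± 4.83 CPM in bone marrow monocytes.

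Among the receptors, Ifngr1, the ligand-binding chain of the interferon gamma receptor, separated the populations. It averaged 133 ± 10.1 CPM in cornea macrophages, 1116 ± 83.7 in retinal microglia, 1543 ± 76.2 in brain microglia and 670.1 ± 23.7 in bone marrow monocytes, with no overlap. The cornea was lower by a log2 difference of -3.07 (SE 0.106) against retinal microglia, -3.53 (SE 0.108) against brain microglia and -2.33 (SE 0.103) against bone marrow monocytes. Retinal against brain microglia differed by -0.47 (adjusted p = 0.00481), and by -0.35 (adjusted p = 0.247) with the lane as a term. Ifngr2, the second chain of that receptor, averaged 320.3 ± 40.4 CPM in cornea macrophages, 300.1 ± 19.2 in retinal microglia, 297 ± 22.6 in brain microglia and 269 ± 9.78 in bone marrow monocytes and was called in no comparison, but on total counts it was lower in cornea macrophages in all 3 comparisons of the cornea, by -0.70, -0.56 and -0.43. Of the type I receptor chains, Ifnar1 averaged 292 ± 43.3 CPM in cornea macrophages, 139 ± 16.9 in retinal microglia, 147 ± 15.1 in brain microglia and 218 ± 10.5 in bone marrow monocytes. Its higher level in the cornea was not called on total counts against retinal microglia or bone marrow monocytes. Ifnar2 averaged 178 ± 27.3 CPM in cornea macrophages, 257 ± 43.7 in retinal microglia, 258 ± 12.7 in brain microglia and 260.2 ± 13.8 in bone marrow monocytes.

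Transcription factors of the pathway did not have one common order. Irf1 had 422, 414, 537 and 349.8 CPM in cornea macrophages, 82.5, 80.3, 108 and 72.5 in retinal microglia, 76.0, 87.7, 66.9 and 88.9 in brain microglia and 129, 142, 139 and 147 in bone marrow monocytes. The cornea was higher by 2.33 (SE 0.155) against retinal microglia, 2.43 (SE 0.156) against brain microglia and 1.63 (SE 0.152) against bone marrow monocytes. Irf7, an amplifier of type I interferon, averaged 200.5 ± 52.6 CPM in cornea macrophages, 38.6 ± 5.40 in retinal microglia, 7.78 ± 2.31 in brain microglia and 402 ± 75.6 in bone marrow monocytes. Retinal and brain microglia did not overlap for Irf7, with a log2 difference of 2.31 (SE 0.225, adjusted p = 4.13e-06). Of the 10 signalling genes tested, 4 were higher and 3 lower in cornea macrophages against retinal microglia (4 and 6 on total counts), 5 and 3 against brain microglia (4 and 5), and 3 and 7 against bone marrow monocytes. In retinal against brain microglia 1 was higher and 0 lower. Against bone marrow monocytes 1 was higher and 9 lower in retinal microglia, and 1 higher and 8 lower in brain microglia.

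Type I interferon-stimulated genes were set beside the members because ISRE elements are known to control many of them. Of 23 tested, 21 were higher and 0 lower in cornea macrophages against retinal microglia (18 and 1 on total counts), 23 and 0 against brain microglia, and 8 and 8 against bone marrow monocytes (5 and 15 on total counts). The microglia had 0 higher and 22 lower in the retina and 0 and 23 in the brain, each against bone marrow monocytes. In retinal against brain microglia 18 were higher and 0 lower (11 and 0 with the lane as a term), with a median log2 difference of 1.46, where the members counted 0 higher and 3 lower. Rsad2, the antiviral enzyme viperin, had 684, 989.7, 828 and 1185 CPM in cornea macrophages, 12.1, 5.81, 17.2 and 13.8 in retinal microglia, 3.17, 0.915, 0.496 and 3.63 in brain microglia and 113, 127, 109.8 and 120.3 in bone marrow monocytes. No library of one population overlapped another. Oasl1 averaged 1457 ± 394 CPM in cornea macrophages, 6.63 ± 1.74 in retinal microglia, 1.01 ± 0.995 in brain microglia and 44.2 ± 3.39 in bone marrow monocytes. Oas3 went the other way against marrow, with 38.3 CPM in cornea macrophages and 139.7 CPM in bone marrow monocytes. Slfn5 and Zbp1 were also lower in cornea macrophages than in bone marrow monocytes.

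Other genes induced by interferon gamma numbered 16 tested, of which 8 were higher and 5 lower in cornea macrophages against retinal microglia, 9 and 4 against brain microglia, and 4 and 8 against bone marrow monocytes. In retinal against brain microglia 5 were higher and 0 lower, and against bone marrow monocytes 1 was higher and 12 lower in either microglia population. Cxcl10, a chemokine for T cells, averaged 416 ± 38.3 CPM in cornea macrophages, 10.8 ± 2.48 in retinal microglia, 1.58 ± 0.873 in brain microglia and 35.4 ± 6.30 in bone marrow monocytes. Nlrc5, an activator of MHC class I genes, averaged 51.5 ± 9.98 CPM in cornea macrophages, 9.75 ± 2.17 in retinal microglia, 2.33 ± 0.639 in brain microglia and 39.3 ± 5.96 in bone marrow monocytes. For both, retinal microglia lay above brain microglia, with log2 differences of 2.82 (SE 0.282) for Cxcl10 and 2.07 (SE 0.241) for Nlrc5. Psmb8 and Psmb9 were instead lower in the cornea in each of its comparisons. Psmb8 averaged 61.9 CPM in cornea macrophages and 303 CPM in bone marrow monocytes, and Psmb9 12.5 and 74.9 CPM.

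**Figure D5:**
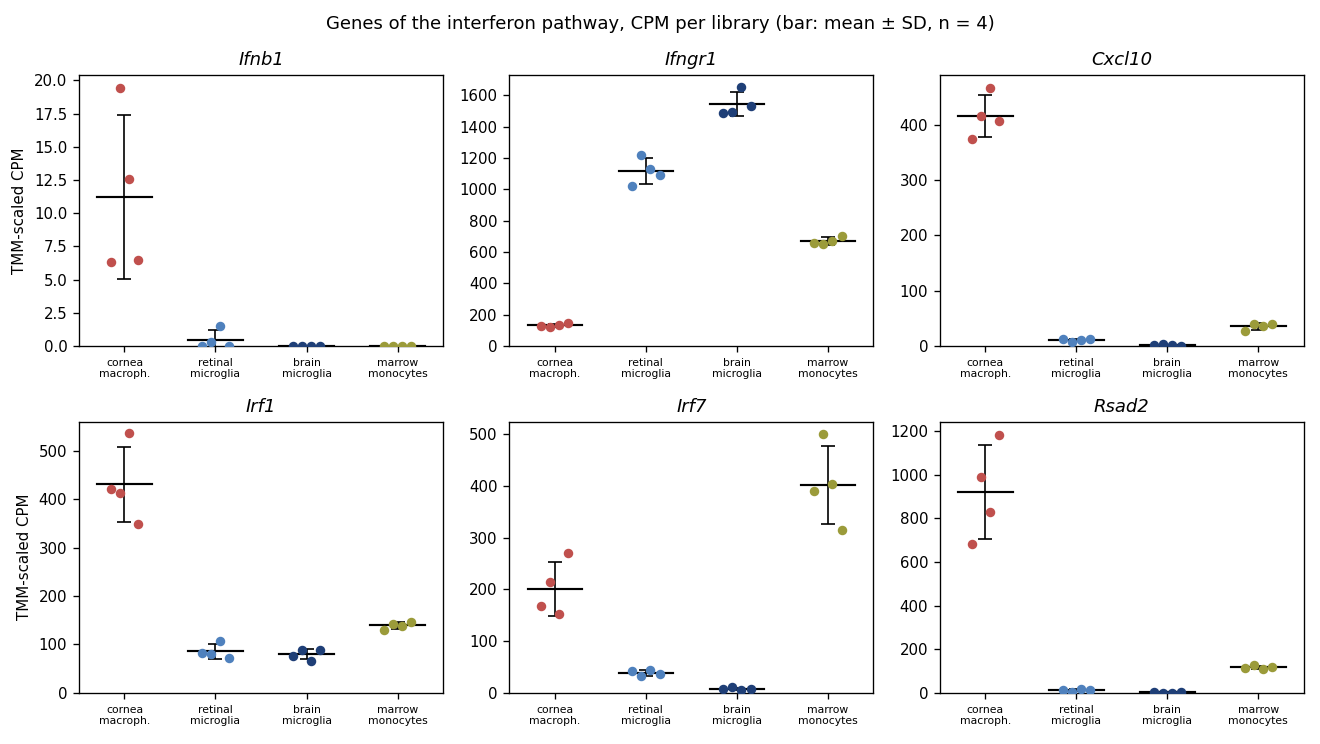
TMM-scaled CPM of 6 interferon pathway genes in each library, on a separate linear axis for each gene, with cornea macrophages, retinal microglia, brain microglia and bone marrow monocytes from left to right. Points are libraries and the bar is the mean ± SD (n = 4). Ifngr1 averages 133 CPM in cornea macrophages, below all other populations, while Irf1 averages 431 CPM there, above all of them.

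Feedback inhibitors included genes with large contrasts. Socs3, which blocks JAK signalling, averaged 742 ± 253 CPM in cornea macrophages, 91.9 ± 37.2 in retinal microglia, 36.9 ± 7.37 in brain microglia and 4.76 ± 1.38 in bone marrow monocytes. Usp18, which restrains type I receptor signalling, averaged 123 ± 25.5 CPM in cornea macrophages, 47.6 ± 14.3 in retinal microglia, 17.0 ± 3.93 in brain microglia and 204 ± 14.2 in bone marrow monocytes. Of the 6 inhibitors, 5 were higher and 1 lower in cornea macrophages against each microglia population, and 4 and 2 against bone marrow monocytes. In retinal against brain microglia 2 were higher and 0 lower. Against bone marrow monocytes 1 was higher and 2 lower in retinal microglia, and 2 and 2 in brain microglia.

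Partners that act with IRGs and GBPs at the vacuole were mostly higher in the cornea. Of 15 tested, 10 were higher and 4 lower in cornea macrophages against each microglia population and 10 and 3 against bone marrow monocytes, while retinal against brain microglia had 1 and 1. In the comparisons of the cornea, 30.9% to 33.8% of all genes were higher and 31.1% to 35.1% lower. Atg5, Atg16l1 and Trim21 were lower in cornea macrophages in all 3 comparisons. Map1lc3a was lower there against both kinds of microglia and higher against bone marrow monocytes. Set against bone marrow monocytes, retinal microglia had 5 higher and 5 lower, and brain microglia 4 and 5. Sqstm1 (p62), an adaptor that binds ubiquitin on damaged vacuoles, averaged 7524 ± 1179.9 CPM in cornea macrophages, 149 ± 40.9 in retinal microglia, 140.1 ± 20.4 in brain microglia and 95.5 ± 8.56 in bone marrow monocytes. Lgals3, a lectin that detects broken vacuoles, averaged 4790.3 ± 605 CPM in cornea macrophages, 30.9 ± 11.4 in retinal microglia, 2.69 ± 0.811 in brain microglia and 1462 ± 105 in bone marrow monocytes.

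The cytosolic sensors that GBPs help to expose bacteria to, listed with the genes that act after them, gave mixed counts. Of 8 tested, 3 were higher and 3 lower in cornea macrophages against each microglia population, and 3 and 4 against bone marrow monocytes, while none was called in retinal against brain microglia. Of all genes, 30.9% to 33.8% were higher and 31.1% to 35.1% lower in the comparisons of the cornea. Retinal microglia had 1 higher and 2 lower against bone marrow monocytes, and brain microglia 2 and 3. Casp4, the mouse caspase-11, averaged 279 ± 36.8 CPM in cornea macrophages, 21.5 ± 6.64 in retinal microglia, 14.2 ± 3.97 in brain microglia and 31.3 ± 2.82 in bone marrow monocytes. Nlrp3 averaged 1209 ± 115 CPM in cornea macrophages, 46.6 ± 7.905 in retinal microglia, 59.5 ± 5.39 in brain microglia and 36.5 ± 5.84 in bone marrow monocytes. The other gene higher in the cornea in all 3 comparisons was Il1b, the cytokine interleukin-1 beta. Pycard, the adaptor ASC that joins sensors such as Nlrp3 to caspase-1, was lower in the cornea instead. It averaged 12.6 ± 1.55 CPM in cornea macrophages, 119.6 ± 20.6 in retinal microglia, 142 ± 4.42 in brain microglia and 129 ± 17.7 in bone marrow monocytes, with log2 differences of the cornea of -3.24 (SE 0.153), -3.48 (SE 0.154) and -3.35 (SE 0.154). The DNA sensor Aim2 and Gsdmd, the gene of the pore protein gasdermin D, were also lower in the cornea in all 3 comparisons. The immediate-early sum was also highest in the cornea, as given above, and its part in these levels was not tested.

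Among themselves the 10 genes formed no single profile over the 16 libraries, which fall into 4 population clusters. Over the 45 pairs the median Pearson r of log2 CPM was 0.638, with 12 pairs over 0.8 and 16 below 0, and these values share libraries and populations. Irgm1 and Ifi47 had the highest, at 0.958, Irgm2 and Igtp had 0.883, and Igtp and Gbp5 had the lowest, at -0.678. After each population's mean was taken off, the median r was 0.138 and 29 of the 45 pairs were above 0. Of 10985 genes outside the list with at least 5 CPM on average, the nearest to the mean profile of the members were Myd88 (r = 0.976), Dhx40 (0.971) and Gm11868 (0.969), followed by Mcm4, Fam107b, Slfn3, Ahcyl2, Jarid2, Far1 and Serp1, at 0.967 to 0.958. The gene nearest to each member was Slfn1 for Irgm1 (0.983), Cpped1 for Irgm2 (0.950), Rxrb for Igtp (0.966), Syne3 for Iigp1 (0.942), Setd8 for Ifi47 (0.985) and Nostrin for Tgtp1 (0.978). For the GBPs it was Gm10053 for Gbp2 (0.983), Uba1 for Gbp3 (0.975), Dennd5a for Gbp5 (0.984) and Mcur1 for Gbp7 (0.911). With 4 clusters of 4 libraries, such values mainly describe the order of the population means.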

How the data were processed

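Raw read counts per gene were deposited for 16 libraries, as whole numbers without normalization, with a gene length column (unit other, bases) per the file headers. CASAVA 1.8.2, Subread, featureCounts, limma and build GRCm38.p4 are named in the submitters' processing notes. The labels leave out the aligner's settings, the annotation release and the strand setting, and the extraction text describes another tissue and line, so kit and strand are uncertain. Libraries were grouped by source, and replicate numbers follow accession order. In 3 titles (cornea 1, retina 1, retina 3) the letter b after the number is missing, and cornea 1 and 2, retina 1 and 2, and retina 3 and 4 share a title number. They were counted as separate libraries. The chi-square ratio of these pairs was 22.2, 27.1 and 95.5, where sampling noise gives about 1, so they are not one library deposited more than once, but that does not show separate samples, and n = 4 may be too high. The ratios of cornea 1 and 2 and of retina 1 and 2 were the lowest of any pair in their population. That of retina 3 and 4 was the highest among the retinal pairs. Whether libraries came from separate animals is unknown, so p-values measure the spread between these libraries. Totals ran from 8677418 to 21756558 counts. Counting error limits the precision of low genes, and the spread between libraries adds to it. For instance, Ifi47 had 33, 59, 9 and 14 counts in the brain libraries.

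Counts were tested with edgeR 4.0.16 in R 4.3.3, with TMM scaling, a minimum count of 10 (filterByExpr), a quasi-likelihood fit over all 16 libraries with population as the only term, and Benjamini-Hochberg adjustment over 15754 genes, calling adjusted p under 0.05. SE is the log2 difference divided by the square root of the F statistic. The steps were tested on simulated data. Alternatives were total counts, DESeq2 1.42.0 and its size factors, other filters, only the 2 populations compared, a lane term, a block for ranges shared by titles, leaving out each library, leaving out the 3 libraries without the letter b, and summing libraries with a shared title number. CPM used TMM-scaled library sizes, and RPKM also the deposited lengths. Of 45664 entries, 16739 were 0 throughout, and 27 entries whose symbols had become dates held at most 0.223% of a library. Other figures came from Python 3.11.15, pandas 2.3.3, numpy 2.4.6 and matplotlib 3.10.9.

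The members and gene lists were chosen with earlier results of these data known. All 10 members were named, and of other lists up to 4 genes per comparison with the largest called differences and at least 5 CPM in the higher population were eligible, with interferon genes, receptors and Irf1 always; 1 gene is not reported here. Some genes that went against most of their list were named outside this rule. Likeness was Pearson r of log2 CPM with a prior count of 2.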

Additional observations from a re-analysis of the deposited data

Results flagged for a closer look

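Irgm1 in bone marrow monocytes 4 stood apart from its group, with 322 CPM against 268, 272 and 268 CPM in the other 3 marrow libraries. Gm12250 in brain microglia 2 stood apart too, with 9.56 CPM against 18.3, 19.2 and 19.7 CPM in the other 3 brain libraries; the gene is an IRG-like one whose GENCODE entry is a processed pseudogene. Both gaps, divided by the range of the group, passed Dixon's 95% critical value for 4 libraries. Of 146 groups of 4 libraries examined, 2 passed, and chance gives about 1 in 20.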

How the results depend on the processing

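The 60 member differences were recomputed under 25 alternatives, which gave 1499 values: 1451 kept their direction and side of the threshold, 14 lost the call, 14 gained it and 20 changed sign, and 41 of the 60 differences kept both in every alternative run. The fit with only the retinal and brain libraries gave no value for Tgtp1. On total counts no member was higher in cornea macrophages than in bone marrow monocytes (0 in place of 2), and the log2 difference changed sign for Gbp7 against brain microglia (-0.48), and for Iigp1 (-0.12) and Gbp2 (-0.080) against bone marrow monocytes. Total counts also moved 15 of the 40 mean levels of members by more than 1 SD. List counts under total counts, DESeq2 size factors and the lane term were chosen after seeing the data, and 356 of 396 stayed within 1.5 times. With the lane as a term, 463 genes in place of 1662 and 1 member in place of 3 lower were called in retinal against brain microglia, and 1 member in place of 2 was higher in brain microglia than in bone marrow monocytes. In that fit Irgm2 (0.034) and Igtp (0.12) changed sign for retinal microglia against bone marrow monocytes, and Igtp (0.036) against brain microglia. The Igtp difference between retinal microglia and bone marrow monocytes, -0.015, was also 0.10 on total counts, 0.029 with DESeq2's size factors and with its Wald test, 0.034 with a minimum count of 50, 0.016 without a filter and 0.019 with only these populations. Ifi47 in retinal against brain microglia was 0.099 without the 3 libraries whose titles miss the letter b. Leaving out 1 library at a time gave, in retinal against brain microglia, 0 to 1 members higher, -0.42 to 0.60 for Ifi47 and -0.046 to 0.15 for Irgm1, and -0.12 to 0.053 for Igtp in retinal microglia against bone marrow monocytes. Without brain 2, whose Ifi47 level of 6.00 CPM was the highest of its group, the Ifi47 value was 0.60. In brain microglia against bone marrow monocytes 1 to 2 members were higher. The cause of these changes was not tested.

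Replicate numbers follow accession order and pair nothing. The titles of brain 3 and marrow 3 share the range 4 to 6, and those of brain 4 and marrow 4 the range 7 to 9; the labels do not say what these ranges mean, and no other populations share one. With the range as a replicate block, chosen after seeing the data, 8575 genes in place of 8817 were called in brain microglia against bone marrow monocytes, with 2 members higher and 7 lower in both fits. Deviations from the group means correlated at -0.0096 and 0.033 over genes for the libraries that share a range, so the ranges were not taken to pair libraries. Low counts limit Iigp1 and Tgtp1, which had 0 to 89 counts in microglia libraries, and the spread between libraries limits them too. The scaling of the cornea libraries, whose TMM factors were lowest, limits every comparison with the cornea, and the lane limits retinal against brain microglia.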
